A study of Mus musculus with 4 samples.

Results

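The transcripts described here encode the enzymes and regulators of cholesterol and fatty acid synthesis that the sterol regulatory element binding proteins (SREBPs) drive, measured in small intestine of mice labelled HNF4 null and of controls. The genes were taken from a list of 32 symbols, each through the probe sets that the platform annotation assigns to that symbol alone, and a gene was represented by its brightest probe set over the 4 arrays. Of the 32, 30 had such a probe set among 12393 genes with one, and 29 were bright enough to test among 9546 genes. Insig1 and Acat2 were not analysed here. Acaca, acetyl-CoA carboxylase, had 1 probe set, which fell among the dimmest 30% and was not tested. The 30 genes had 60 probe sets, of which 53 passed the filter on dim probe sets.

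Small intestine RNA from 4 mice aged 1 month was hybridised to Affymetrix arrays, with 1 array for each mouse. Both null animals, a male and a female, carried a floxed HNF4 allele over a minus allele (HNF4loxp/-) with villin cre, which is active in gut epithelium. The control female was HNF4loxp/+ with villin cre, and the control male was HNF4loxp/- without Cre, so all 4 animals carried a floxed allele and the controls differed from each other in sex, Cre and the second allele. The labels name neither the HNF4 paralogue nor the part of the intestine, and do not say whether epithelium was separated from the wall. In such bulk tissue, fewer cells of a type and less RNA per cell cannot be told apart.

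SREBPs are made as precursors held in the endoplasmic reticulum with the escort protein Scap. When sterols are plentiful, Insig proteins retain the complex, and when sterols fall, Scap carries the precursor to the Golgi, where proteolysis releases the transcription factor. Srebf2 mainly drives cholesterol synthesis and Srebf1 mainly drives fatty acid synthesis. In the small intestine, the epithelium both absorbs cholesterol from the lumen and makes its own.

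The 3 promoters below are shown because Hmgcs1 was the 1 gene of the list whose upstream window held the core of a sterol regulatory element, and because Me1 and Msmo1 had the smallest p values of the 29 genes tested. Each is the 250 bases before the annotated transcription start, from RefSeq on build GRCm38.p6, written 5′ to 3′ on the strand of the gene, with motif matches in capitals. They lie at chr13:119690101-119690350 on the plus strand for Hmgcs1, at chr8:64733579-64733828 on the minus strand for Msmo1 and at chr9:86695915-86696164 on the minus strand for Me1.
Hmgcs1: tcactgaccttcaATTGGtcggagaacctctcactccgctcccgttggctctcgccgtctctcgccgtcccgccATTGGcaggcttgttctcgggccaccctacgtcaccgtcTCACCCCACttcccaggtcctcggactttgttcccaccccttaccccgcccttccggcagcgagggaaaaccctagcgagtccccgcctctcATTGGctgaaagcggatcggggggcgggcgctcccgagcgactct
Msmo1: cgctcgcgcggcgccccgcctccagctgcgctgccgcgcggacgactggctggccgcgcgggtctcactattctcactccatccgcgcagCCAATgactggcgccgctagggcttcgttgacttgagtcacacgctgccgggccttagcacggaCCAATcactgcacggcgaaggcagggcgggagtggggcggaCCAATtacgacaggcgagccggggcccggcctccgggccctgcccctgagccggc
Me1: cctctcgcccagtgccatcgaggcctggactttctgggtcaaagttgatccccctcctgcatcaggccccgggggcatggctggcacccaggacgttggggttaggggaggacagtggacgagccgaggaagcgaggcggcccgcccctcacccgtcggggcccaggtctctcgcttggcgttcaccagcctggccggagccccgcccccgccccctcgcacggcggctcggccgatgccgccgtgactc

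The motifs searched on both strands were TCACNCCAC for the sterol regulatory element, CCAAT for the partner factor NF-Y, CACGTG for E-boxes and CAAAGTNCA for HNF4. RefSeq windows were matched for 25 of the 32 genes (34 windows, some of them overlapping starts of 1 gene). Fdps, Fdft1, Sqle, Stard4, Scd1, Scd2 and Fads1 were not matched. TCACNCCAC was found in 1 of the 34 windows, that of Hmgcs1, beginning at base 114 counted from 1 at the 5′ end, and in 1.05% of all 32851 windows. CCAAT was found in 20 of the 34 windows (58.8%), against 33.8% of all windows, and it occurs 3 times in each of the Hmgcs1 and Msmo1 windows shown. CACGTG was found in 5 windows (14.7%), those of Scap, Insig1, Hsd17b7, Sc5d and Dhcr7, against 6.02% of all. CAAAGTNCA was found in 0 of the 34 windows and in 1.19% of all. The Me1 window shown held none of these letters, and a second Me1 window at a start within the gene held 1 CCAAT. Such matches describe letters in these windows and do not show binding.

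Values are given as deposited intensities on a linear scale, always in the order null male, null female, control female, control male. Differences are null minus control on the scale of log2(normalized intensity + 16), where 1 unit is a 2-fold change for bright probe sets, and the scale understates the change of dim ones. The median deposited intensity of an array was 43.2 in the null male and 49.5 to 53.3 in the other 3. The null male had the lowest correlations with the other arrays, 0.927 to 0.946 across probe sets, against 0.955 to 0.963 among the other 3. The brightest Hnf4a probe set read 1136, 1025, 1141 and 731. The Hnf4a probe sets differed by 0.234, 0.315, 0.134 and 0.084, and those of Hnf4g by 0.155 and 0.117, each with overlap between the groups. No Hnf4a or Hnf4g probe set was thus lower on average in the null animals. Since the deleted part of the HNF4 gene is not given in the sources used here, these values do not check the labels. Enterocyte markers were bright on all 4 arrays (summed intensity of 8 genes, 35210 to 40020), so gut epithelium was present in each sample.

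None of the 29 genes passed the threshold in limma, a moderated linear model, with Benjamini-Hochberg adjustment across the 15838 probe sets past the filter. All 29 had an adjusted p of 1 in limma, where 2 of the 15838 probe sets (0.0126%) passed. With sex as a block 0.183% of the probe sets passed, and again 0 of the 29 genes. At an unadjusted p under 0.05 there were 2 of the 29, Me1 and Msmo1, both lower in the null animals, against 3.23% of all genes tested in either direction and 1.76% with the null animals lower. Of the 29, 15 had a difference above 0 and 14 below, with a median of 0.01 and a range from −0.63 to 0.54. Over all genes tested the median was 0.001, with 50.3% above 0. The difference lay within 0.5 of 0 for 25 of the 29 (86.2%), against 93.0% of all genes tested. The 95% intervals reached a median of 0.607 to either side of the estimate, from 0.44 for Ebp to 1.01 for Sqle, and 23 of the 29 lay wholly between −1 and 1. For dim genes such as Fads1 and Pmvk these bounds stand for more than a 2-fold change. The intervals, which are not adjusted, included 0 for 27 of the 29. A change within those intervals could not be told from 0 with 2 animals a group.

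On the normalized scale the groups did not overlap for 5 of the 29 genes. Both null animals read below both controls for Me1, Msmo1 and Idi1, which is 3 of 29 against 15.2% of all genes tested, and above both controls for Scd2 and Ebp, which is 2 of 29 against 14.4%. Both shares of the 29 genes are below those of all genes.

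**Figure D1:**
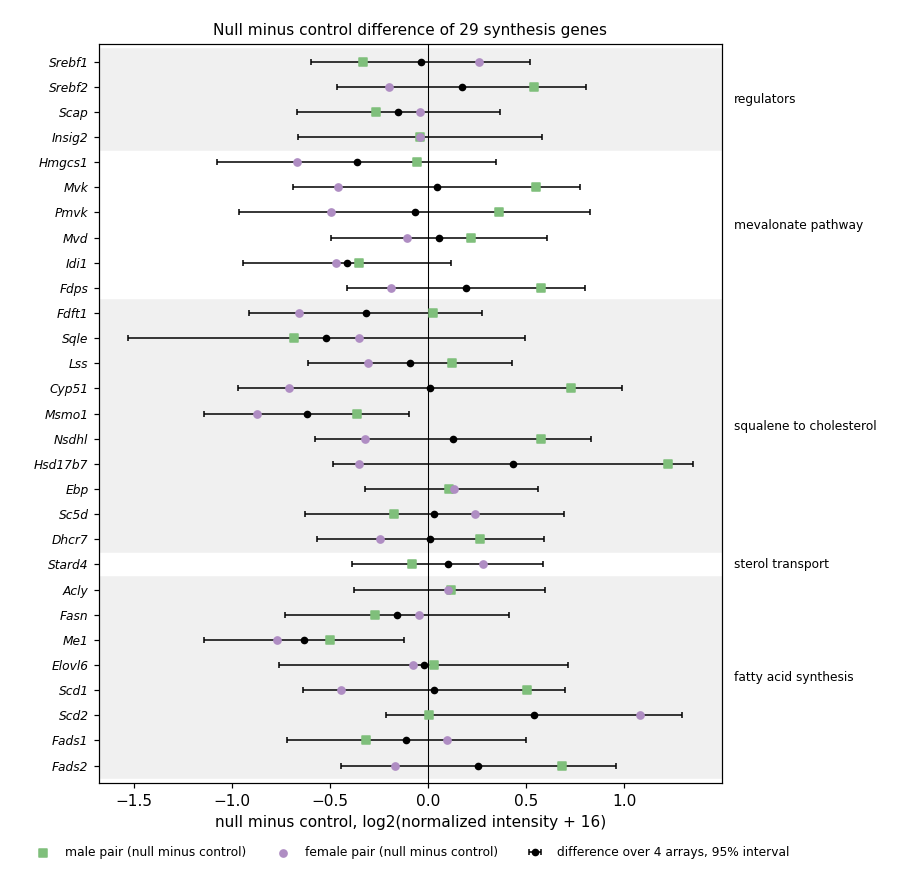
Null minus control difference on the scale of log2(normalized intensity + 16) for the 29 genes tested, ordered by role, with black points for the difference over 4 arrays and bars for its 95% interval in limma. Green squares give the male pair and purple circles the female pair. The interval leaves out 0 for Me1 and Msmo1, before any adjustment, and includes it for the other 27.

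The 4 regulators of the pathway differed between the groups by less than their standard errors. Srebf1, which encodes the SREBP of fatty acid synthesis, read 131, 172, 137 and 185, a difference of −0.04 (SE 0.23). Srebf2, which encodes the SREBP of cholesterol synthesis, read 148, 159, 180 and 108, a difference of 0.17 (SE 0.27). The low value was that of the control male, and a second Srebf2 probe set gave −0.12. Scap, the sterol-sensing escort, read 138, 205, 206 and 185, with the low value in the null male, and differed by −0.15 (SE 0.22). Insig2, which retains the Scap complex, read 146, 122, 121 and 164 and differed by −0.04 (SE 0.26), and its other 2 probe sets gave 0.09 and −0.28. All 4 of these genes overlapped between the groups.

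The mevalonate pathway turns acetyl-CoA into the isoprenoid building blocks of cholesterol, and 3 of its 6 genes tested had a difference above 0 and 3 below (median −0.01). Hmgcs1, cytosolic HMG-CoA synthase at the entry of the pathway, read 314, 405, 665 and 347. The high value was that of the control female alone, and the control male lay between the null animals. The same animal was the highest on all 4 Hmgcs1 probe sets, and these gave −0.36, −0.34, −0.44 and −0.66, with the last not overlapping between the groups. The brightest had an SE of 0.30 and a 95% interval from −1.08 to 0.35.

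Idi1, isopentenyl diphosphate isomerase, read 99.4, 135, 187 and 145. The groups did not overlap and the difference was −0.41 (SE 0.22, 95% interval −0.94 to 0.12). Its second probe set gave −0.22 and overlapped, with the null female, at 68.6, above both controls. Mvk, mevalonate kinase, read 118, 73.9, 103 and 83.8, so the null animals were the highest and the lowest of the 4, and it differed by 0.04 (SE 0.31), with −0.34 on its second probe set. Both kinases of the pathway spread more among the null animals than between the group means. Pmvk, the next kinase, had the same order of null animals at 45.8, 19.9, 31.3 and 37.4 and differed by −0.07 (SE 0.37). Mvd, mevalonate diphosphate decarboxylase, had controls of 84.0 and 83.3 and null animals of 89.3 and 80.7, a difference of 0.06 (SE 0.23). Its second probe set read 82.4 and 63.2 against 48.6 and 59.2, with both null animals above both controls and a difference of 0.38. Fdps, farnesyl diphosphate synthase, read 186, 181, 203 and 130, low in the control male, and differed by 0.19 (SE 0.25), with −0.06 on its second probe set.

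From farnesyl diphosphate to cholesterol, 6 of 10 genes had a difference above 0 and 4 below, with a median of 0.01. Msmo1, a methylsterol monooxygenase of the demethylation steps, had the largest difference of the sterol genes. It read 178, 154, 287 and 253, so both null animals were below both controls. Its mean log2 level was 7.52 ± 0.27 for null and 8.14 ± 0.09 for control (SD, n = 2 mice each). The difference of −0.62 (SE 0.22, 95% interval −1.14 to −0.10) was −0.36 between the males and −0.87 between the females. Msmo1 had 1 probe set.

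Sqle, squalene epoxidase, a rate-limiting enzyme of the late pathway, had the widest spread of the 29 genes. It read 34.3, 109, 138 and 73.5, so the null male was the lowest, while the null female lay between the controls. The difference was −0.52 (SE 0.42, 95% interval −1.53 to 0.50), and it was 0.03 without the null male. Cyp51, lanosterol demethylase, read 83.3 and 86.5 with null genotype, between controls of 146 and 50.0, on the log2 scale the widest gap between the controls among the 29 genes, and its difference was 0.01 (SE 0.41). Fdft1, squalene synthase, read 91.4 and 90.3 against 146 and 101, with the null male and the control male at one level after normalization (6.88 and 6.85), and differed by −0.32 (SE 0.25). Its 4 probe sets did not share a sign, with −0.37, 0.17 and 0.44 on the other 3.

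The remaining sterol enzymes had differences closer to 0 or carried by 1 animal. Lss, lanosterol synthase, read 130 and 128 against 156 and 130 and differed by −0.09 (SE 0.22). Nsdhl, a sterol dehydrogenase, was highest in the null male at 258 and lowest in the null female at 161, around controls of 199 and 182, and differed by 0.13 (SE 0.29). Hsd17b7, a reductase of the same demethylation complex, likewise peaked in the null male, with 103 and 53.0 against 68.2 and 40.2, a difference of 0.43 (SE 0.38) with −0.14 on its second probe set. Ebp, a sterol isomerase, read 249 and 271 against 243 and 247, without overlap but only 0.12 apart (SE 0.18, 95% interval −0.32 to 0.56). Sc5d, a sterol desaturase, read 217 and 202 between controls of 165 and 265 and differed by 0.03 (SE 0.28), with 0.10 on its second probe set. Dhcr7, the reductase of the last step to cholesterol, read 63.9, 56.7, 66.5 and 57.8 and differed by 0.01 (SE 0.24). Stard4, a cytosolic sterol carrier that SREBPs induce, read 493 and 705 around controls of 596 and 537 and differed by 0.10 (SE 0.20), with −0.12 on its second probe set.

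Fatty acid synthesis had 4 genes above 0 and 4 below, with a median of 0.003. Me1, the cytosolic malic enzyme that supplies NADPH, had the smallest p of the 29 genes. Its brightest probe set read 115, 137, 237 and 185, and the other 72.5, 147, 227 and 188. Both null animals were below both controls on both probe sets. The brightest had a mean log2 level of 7.16 ± 0.02 for null and 7.80 ± 0.21 for control (SD, n = 2 mice each), a difference of −0.63 (SE 0.21, 95% interval −1.14 to −0.13), and the other differed by −0.85 (SE 0.28). The brightest probe set gave −0.50 between the males and −0.77 between the females, and its unadjusted p of 0.0218 did not pass after adjustment across all probe sets (adjusted p = 1 in limma).

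The core enzymes of fatty acid synthesis differed by less than their standard errors. Acly, ATP citrate lyase, which supplies cytosolic acetyl-CoA, read 166 and 214 against 195 and 166 and differed by 0.11 (SE 0.20), and its 4 probe sets past the filter lay between 0.005 and 0.11. Fasn, fatty acid synthase, read 60.7 and 99.6 against 99.0 and 85.9, with the low value in the null male, and differed by −0.16 (SE 0.24). The probe set of Acaca read 40.0, 21.3, 9.62 and 30.1, too dim to test. Whether Me1 differed from Acly or Fasn in its response was not tested.

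Elovl6, a fatty acid elongase, read 83.2, 151, 155 and 91.1. Both females were high and both males low, on its second probe set as well, and the group difference was −0.02 (SE 0.31), with 0.02 on the second. Among the desaturases, Scd1 read 155 and 111 against 152 and 116 and differed by 0.03 (SE 0.28). Scd2 read 43.5 and 72.7 against 24.1 and 49.5 and differed by 0.54 (SE 0.32, 95% interval −0.21 to 1.29). As deposited the groups overlapped, and after normalization both males stood at 6.03, 0.004 apart, while the females differed by 1.08, and without the control female the group difference was 0.179. The other 2 Scd2 probe sets gave −0.24 and −0.10. Fads1 and Fads2, desaturases of polyunsaturated fatty acid synthesis, differed by −0.11 (SE 0.25) and 0.26 (SE 0.29), and Fads2 was high in the null male alone, at 223 against 140, 155 and 143. Its second probe set gave 0.03.

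**Figure D2:**
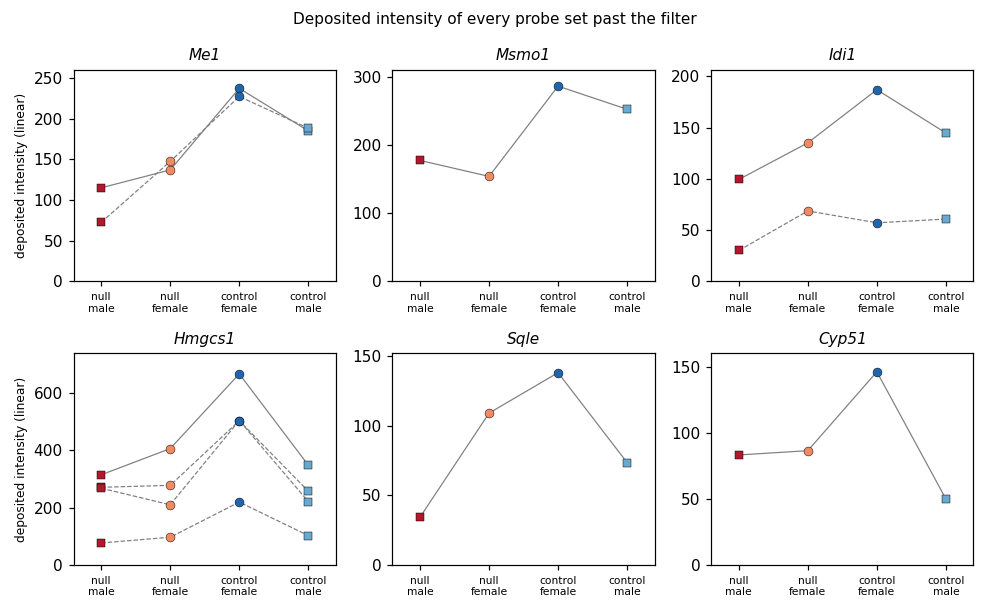
Deposited intensity on a linear scale (y axis, from 0) in each of the 4 animals for every probe set past the filter of 6 genes, with lines joining the values of 1 probe set, solid for the brightest, and no order implied among animals. Both null animals lie below both controls for both Me1 probe sets and for Msmo1, while Hmgcs1 is high in the control female on all 4 probe sets.

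The controls lay further apart in these genes than in all genes by their medians. The median absolute difference between the control female and the control male was 0.297 over the 29 genes, against 0.185 over all genes tested. Between the null female and the null male it was larger in both sets, at 0.339 against 0.313. The median range over the 4 arrays was 0.648, against 0.498. The control female was the highest of the 4 arrays for 12 of the 29 genes (41.4%), against 19% of all genes tested. The null female was the highest for 3 (10.3%), against 27.4%, and the lowest for 11 (37.9%), against 26.3%. The null male was the highest for 10 (34.5%), against 32%, and the lowest for 8 (27.6%), against 32.8%. The control male was the highest for 4 (13.8%), against 21.6%, and the lowest for 6 (20.7%), against 19.6%, and the control female was the lowest for 4 (13.8%), against 21.3%. These shares describe 4 arrays and carry no test.

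**Figure D3:**
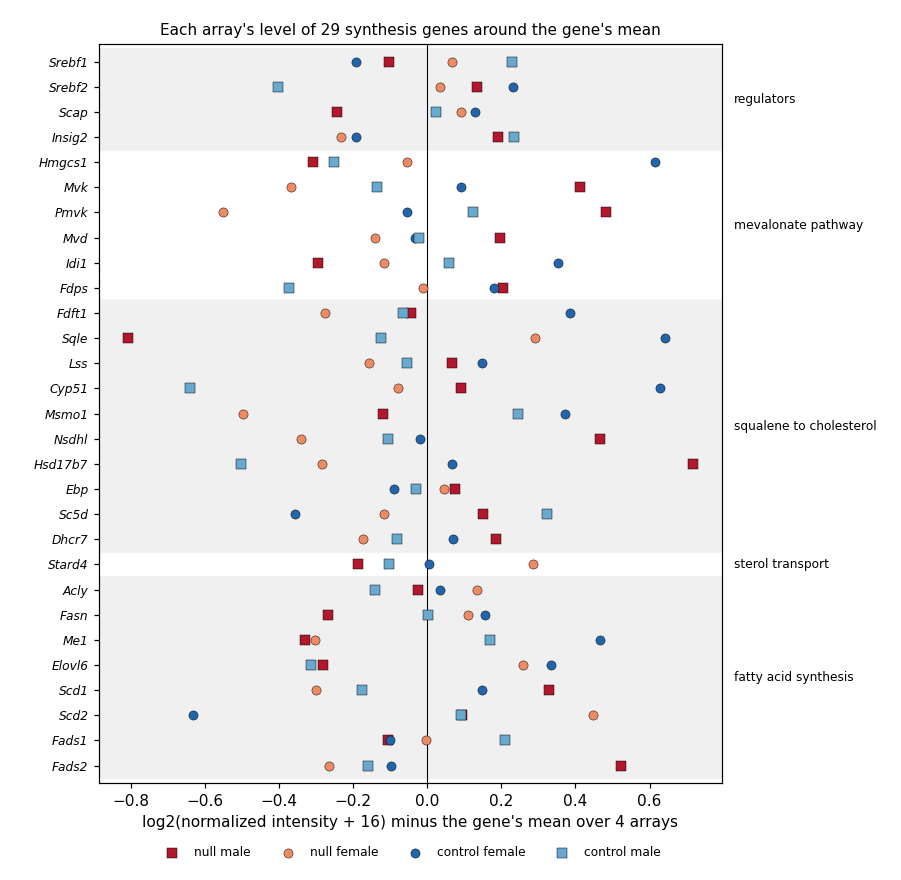
Level of each of the 29 genes on each array, as log2(normalized intensity + 16) minus the mean of the gene over the 4 arrays, with squares for males, circles for females, red shades for null and blue shades for control animals. The control female (dark blue circles) is the rightmost point for 12 genes, among them Hmgcs1, Sqle, Cyp51, Msmo1 and Me1.

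For the cholesterol genes the male and the female pair had medians of opposite sign. In the female pair, on the brightest probe sets, the null female read below the control female for all 6 mevalonate genes. The same held for 8 of the 10 sterol genes, together 14 of 16, against 48.9% of all genes tested. With probe sets averaged it was 13 of 16, and the second Mvd probe set was above 0 in this pair, at 0.229. The median over these 16 was −0.35, against 0.008 over all genes. In the male pair, the null male read above the control male for 11 of the 16, against 48.7% of all genes, with a median of 0.17 against −0.01. On the brightest probe sets the sign was the same in both pairs for 5 of the 16, Hmgcs1, Idi1, Sqle, Msmo1 and Ebp, against 48.2% of all genes. Other probe sets did not always share these signs. The male pair of Hmgcs1 was 0.164, 0.358 and −0.207 on its other probe sets, and the second of Idi1 gave −0.585 in males and 0.15 in females. Conversely, Mvk, Mvd, Fdps, Fdft1, Hsd17b7 and Sc5d had the same sign in both pairs on their second probe sets. The still dimmer probe sets of Fdft1 did not. For fatty acid synthesis the pair medians were 0.02 in males and −0.06 in females. Joining the mevalonate and sterol genes was chosen after their values were seen, and the difference between the pairs was not tested. Sex cannot be told apart here from the genotype of the control, which carried Cre and HNF4loxp/+ in the female pair and HNF4loxp/- without Cre in the male pair. The pair medians kept their signs under each scaling and pseudocount tried and with all probe sets averaged, from −0.418 to −0.244 in females and from 0.048 to 0.248 in males. Without further normalization the median of all genes in the male pair itself shifted to −0.124, and the 16 genes lay 0.173 above it.

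**Figure D4:**
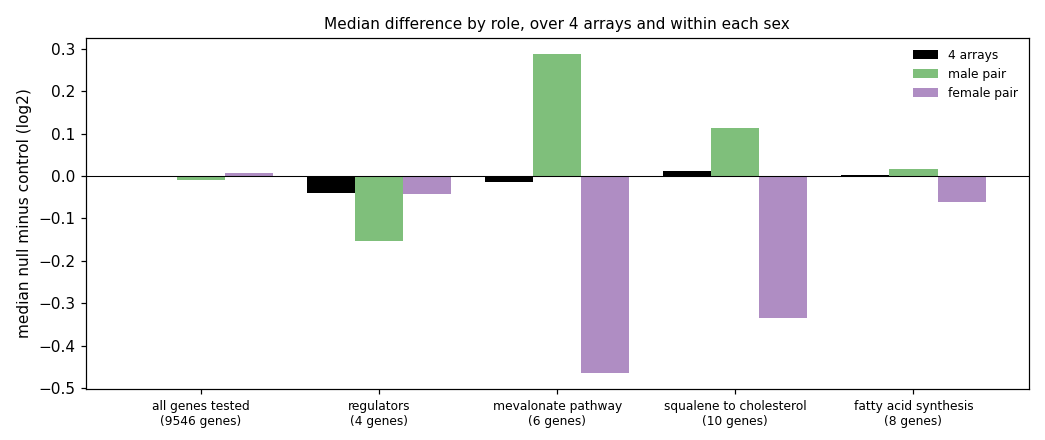
Median null minus control log2 difference (bars from 0) over the genes of each role and over all 9546 genes tested, for the 4 arrays, the male pair and the female pair. The female bar is below 0 and the male bar above 0 for the mevalonate and the squalene to cholesterol genes, while the bars over 4 arrays stay between −0.04 and 0.02.

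Markers of other cell types differed between the same arrays. The summed intensity of 8 smooth muscle markers was 3041 in the null female and 2291 to 2360 in the other animals, and that of 6 fibroblast markers 1673 against 816 to 1050. Their medians were 0.68 and 0.61 in the female pair and −0.04 and −0.188 in the male pair. Acta2, the brightest smooth muscle marker, went the other way in the female pair, at −0.045. The 8 enterocyte markers summed to 35210 in the null female, the lowest of the 4, with a median of −0.18 in the female pair. Apoa4 went the other way in that pair, at 0.479. Over the 4 arrays 7 of the 8 lay below 0. Goblet cell markers, 6 of 6 above 0 over the 4 arrays, summed to 20660 to 23110 for null and 17460 to 18140 for control. The 7 T cell markers, of which 6 were tested and all 6 lay below 0, summed to 702 to 839 against 1094 to 1214. Much of this sum was Gzma, at 596 and 354 against 768 and 677. Of the T cell markers tested, only Gzma and Cd7 did not overlap between the groups, against 15.2% of all genes tested with the null animals lower. After normalization none of the 6 goblet markers overlapped, against 14.4% of all genes tested without overlap and with the null animals higher. The B cell sum was 209 in the control male and 383 to 676 in the others. Cd22 did not share this, and was low in the null female, at 29.4 against 116 to 135 in the others. The pancreatic sum was 860 in the null male and 468 to 549 in the others. Proliferation markers summed to 1408 to 1694 and liver markers to 107 to 162, with overlap between the groups. The part of these differences in the values above was not tested.

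Of 52 further genes of the pathway, covering other synthetic enzymes, regulators and cholesterol handling, 35 had a probe set of their own and 33 were tested. In limma 0 passed after adjustment and 1, Mylip, had an unadjusted p under 0.05, 1 of 33 against 3.23% of all genes tested, with 17 above 0, 16 below and a median of 0.02. Mylip, a ubiquitin ligase that targets lipoprotein receptors and is induced by the oxysterol receptors, read 49.4 and 91.6 against 137 and 107. It did not overlap between the groups and differed by −0.66 (SE 0.26, adjusted p = 1 in limma). Thrsp, a lipogenic gene, read 127 and 31.5 against 24.6 and 24.4, so its difference of 1.05 (SE 0.55) rested on the null male, and its second probe set gave −0.01. Beside it, 4 adipocyte genes summed to 188 to 212, and 2 of them passed the filter. Adipoq, which defines the cell type, read 8.70 in the null male and 12.1 to 15.2 in the others, and did not pass. Lep, also not past the filter, read 42.7 in the null male against 9.93 to 14.7. Of those that passed, Retn was highest in the null male, at 69.1 against 39.1 to 51.9. Cidec was lowest there, at 91.4 against 114 to 130. The part of these genes in the Thrsp value was not tested.

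The partner genes of lipogenic and oxysterol signalling, Rxra and Mlx, differed by −0.44 (SE 0.23) and −0.39 (SE 0.21), both without overlap and both with a second probe set below 0, at −0.27 and −0.43. Values above 0 included Erlin1 at 0.33 (SE 0.18), which acts in sterol-regulated degradation at the endoplasmic reticulum, Stard3 at 0.37 (SE 0.22), a sterol carrier of late endosomes, Prkab1 at 0.31 (SE 0.205), a subunit of AMP-activated kinase, and Npc2 at 0.20 (SE 0.15), a lysosomal cholesterol carrier. These genes, and Thrsp, also did not overlap between the groups after normalization on their brightest probe sets, with both null animals higher. Some other pathway genes did not overlap either, in both directions. Over all genes tested the groups did not overlap for 15.2% with the null animals lower and 14.4% with them higher. The second probe set of Npc2 gave −0.05 and that of Prkab1 0.11. The 10 genes of cholesterol handling tested had a median of 0.17, the 12 synthetic enzymes one of 0.02 and the 11 regulators one of −0.11.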

How the data were processed

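The deposited values are linear intensities, 1 for each probe set on each array, and 1.42% to 2.46% of them lie below 0. How the authors summarised the probes, corrected background or scaled the arrays is not given in the sources used here. Because the medians of log2(intensity + 16) were 0.227 apart between arrays, more than an allowed 0.2, the 22626 probe sets remaining after 64 controls were removed were quantile normalized. Values under 0 were set to 0, and 16 was added before log2. The filter removed the 30% of probe sets with the lowest means. The groups were compared by limma 3.58.1 under R 4.3.3 (lmFit, then eBayes with trend), two-sided at an adjusted p of 0.05, with 2 residual degrees of freedom and 4.65 from the prior. The fit was tested on simulated data. The platform annotation gave 1 gene for 20380 probe sets, several for 691 and none for 1555. Matching Entrez identifiers to a RefSeq table of GRCm38.p6 changed 0 symbols and left 29 unmatched. The text names every listed gene, and of the other pathway genes the 8 with the smallest p. The members and lists were chosen with earlier results of these data known. The labels name separate animals and no littermates. Each group held a male and a female, and the controls also differed in Cre and the second allele. In the fit without a block, the spread behind the standard errors, intervals and p values therefore includes these differences and is not one between like mice. The arrays carry no detection calls, and their number limits the precision. Alternatives were other scalings, pseudocounts of 1 and 64, no filter, no trend, sex as a block, averaged probe sets and leaving out each animal.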

Additional observations from a re-analysis of the deposited data

Results flagged for a closer look

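For 3 of the 29 genes the male and the female pair differed in opposite directions on the brightest probe set, each by more than the standard error of a single pair. The share of all genes tested that meets this rule was not counted, and 48.2% of them had the same sign in both pairs. The null male was above the control male by 0.55 for Mvk, 0.73 for Cyp51 and 0.50 for Scd1. The null minus control difference of the females was −0.46 for Mvk, −0.71 for Cyp51 and −0.45 for Scd1. The second Mvk probe set did not share this pattern, with −0.048 in males and −0.634 in females. With 1 pair per sex the difference between the pairs was not tested, and sex cannot be told apart from the genotype of the control.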

How the results depend on the processing

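No listed gene and no other pathway gene passed under any alternative tried, and the smallest adjusted p of a listed gene in limma was 0.217 over all of them. The 7 genes Idi1, Fdft1, Msmo1, Ebp, Acly, Me1 and Scd2 kept their sign under each setting but not their size, and the other 22 changed sign when 1 animal or another was left out, 14 of them without the null male, 10 without the control male and 4 each without the null female and the control female. Leaving out each animal in turn, their log2 differences ran over these ranges: Srebf1 −0.248 to 0.173, Srebf2 −0.147 to 0.488, Scap −0.319 to 0.015, Insig2 −0.255 to 0.172, Hmgcs1 −0.796 to 0.0689, Mvk −0.348 to 0.435, Pmvk −0.586 to 0.449, Mvd −0.114 to 0.224, Fdps −0.0837 to 0.469, Sqle −1.07 to 0.0329, Lss −0.205 to 0.0196, Cyp51 −0.624 to 0.645, Nsdhl −0.278 to 0.53, Hsd17b7 −0.0662 to 0.935, Sc5d −0.307 to 0.372, Dhcr7 −0.168 to 0.192, Stard4 −0.137 to 0.336, Fasn −0.348 to 0.03, Elovl6 −0.347 to 0.301, Scd1 −0.284 to 0.342, Fads1 −0.265 to 0.0448 and Fads2 −0.138 to 0.651. For the 7 they were Idi1 −0.56 to −0.264, Fdft1 −0.543 to −0.0934, Msmo1 −0.807 to −0.429, Ebp 0.0913 to 0.148, Acly 0.0204 to 0.196, Me1 −0.782 to −0.485 and Scd2 0.179 to 0.901. With probe sets averaged Fdft1 stood at −0.0175, Acly at 0.0456 and Scd2 at 0.067. The median over the 29 genes ran from −0.102 to 0.095 with each animal left out in turn, where the lone animal of a group is assumed to vary like the other group. Without further normalization the signs of Cyp51 (−0.0362), Sc5d (−0.000358), Dhcr7 (−0.034) and Scd1 (−0.016) turned, with a pseudocount of 64 that of Cyp51 (−0.0227), and with probe sets averaged those of Mvk (−0.149), Stard4 (−0.0109) and Elovl6 (0.000616). The count of all probe sets passing was 2, and it was 1 without a trend in the prior, 29 with sex as a block and 0 to 29 without 1 animal. With sex as a block Me1 had an adjusted p of 0.719 and Msmo1 one of 0.722 in limma. The groups share no replicate numbers, so the block on sex, which pairs the males and the females, was the 1 paired fit. Alternatives within each sex were chosen after seeing the data. The cause of these changes was not tested. Without detection calls, how far a dim probe set lies above background is unknown.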
